A study of Homo sapiens with 9 samples.

Results

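Cortactin, encoded by *CTTN*, and 9 other regulators of the actin network beneath the plasma membrane were followed in ALL-SIL cells, a human T cell acute lymphoblastic leukemia (T-ALL) line that expresses the homeobox oncogene *TLX1*. The members were *CTTN*, its blood cell paralog *HCLS1*, the related actin-binding adaptor *DBNL*, the Arp2/3 activators *WAS* and *WASF2* with the *WAS* partner *WIPF1*, the Arp2/3 subunits *ARPC1B* and *ARPC2*, and the regulators of filament turnover *CORO1A* and *CFL1*. Every probe whose transcript accession mapped to one of these 10 symbols was taken, which gave 12 of the 57176 probes on the array, and the 10 genes were among 19722 that the probes could be named for. All 12 were among the 33586 probes tested, namely those well above background on at least 3 of the 9 arrays, and 11 of them were well above background on all 9. The genes were picked with the differences between *PHF6* siRNA and control siRNA in these arrays already known, so for the members those differences are given as a description, with no test.

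Cells were electroporated with a control siRNA, with *PHF6* siRNA1 or with *PHF6* siRNA2, and RNA of 3 samples per group, numbered 1 to 3, was hybridised to one-colour Agilent arrays. Against *PHF6* the authors list an Ambion siRNA and a Dharmacon siRNA pool, and as control an Ambion siRNA only. Which of the *PHF6* reagents was siRNA1 is not stated. Most labels placed the harvest at 96 h after electroporation, whereas a free-text label gave 72 h. All samples came from the same line, all were electroporated, and the knockdown was transient. The authors describe the samples as independent, but neither they nor the labels say whether the numbered samples were separate cultures. The p-values therefore measure the spread between these samples, which may be technical. *PHF6* is a chromatin-associated protein that is often lost in T-ALL, and the comparison addresses which transcripts differ when its mRNA is lowered.

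Branched actin networks are built by the Arp2/3 complex, which starts a new filament on the side of an existing one once an activator of the WASP or WAVE family has switched it on. Cortactin binds both Arp2/3 and filamentous actin and stabilises the branches, while coronin and cofilin take branches and filaments apart so that the subunits can be used again. Cells of the blood lineages mostly use HS1, the product of *HCLS1*, in the place of cortactin, and T cells need this machinery for migration and for the immune synapse.

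Values are generalized log2 intensities after a variance-stabilising normalization, and levels of different probes cannot be compared with each other. The normalized *PHF6* value was 11.07, 11.17 and 10.86 in the control samples, 9.39, 9.69 and 9.12 with siRNA1 and 9.20, 9.28 and 9.14 with siRNA2, so *PHF6* fell by 1.73 on the log2 scale (SE 0.14, adjusted p = 0.00247). The test was limma, a moderated linear model fitted to all tested probes, with Benjamini-Hochberg adjustment over them. T-lineage markers were well above background on all 9 arrays for 17 of 17 genes. Samples with the same number deviated together. Therefore a limma fit blocked on the replicate number is given wherever it changed the call in a test reported here, apart from the members. Among the T-lineage markers the block changed only the call of *CD7*. It was 0.76 lower with the siRNAs (limma with the replicate block, adjusted p = 0.0124, and 0.586 without it). The blocked fit called 2.74% of all tested probes. Unless said otherwise, the SEs of *PHF6* and the members are of the fit without the block, which leaves the spread between replicate numbers in them. Replicates 1 and 2 of every group shared a slide and replicate 3 lay on the other slide, and each siRNA always lay in the same column of the slide, so that array position and siRNA cannot be told apart. In bulk RNA, fewer cells that express a gene and less RNA per cell cannot be told apart either.

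*CTTN* was the member with the widest difference, and it was higher with the *PHF6* siRNAs. On probe A_33_P3310780 (NM_005231) its log2 value was 9.13, 9.25 and 8.67 in the control samples, 10.12, 9.95 and 9.84 with siRNA1, and 10.25, 10.24 and 10.06 with siRNA2. The lowest siRNA sample lay above the highest control sample, and the control of replicate 3 was the lowest of all 9 arrays. The scanner intensities behind these values were 574.5, 586 and 452.5 in the control samples, 1224, 794 and 1009 with siRNA1, and 1182, 1289 and 1109.5 with siRNA2. The mean difference was 1.06 on the log2 scale (SE 0.15), a 2.08-fold higher level, with 0.95 (SE 0.17) for siRNA1 and 1.16 (SE 0.17) for siRNA2. Among all tested probes this was the 18th highest log2 difference of 33586. Against the control of the same number the 6 siRNA samples lay 0.70 to 1.39 higher, and the mean was 0.95 on slide 1 and 1.28 on slide 2.

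The second *CTTN* probe, A_33_P3392921 (NM_001184740), pointed the same way but was dim. It was well above background on 0 control arrays, 1 siRNA1 array and all 3 siRNA2 arrays, so it passed the filter only through the siRNA samples. Its log2 value was 4.57, 4.52 and 4.47 in the control samples, 5.08, 5.19 and 4.68 with siRNA1, and 4.87, 5.31 and 4.90 with siRNA2, again without overlap. Because the control level is only a limit, *CTTN* was at least 1.39-fold higher on this probe in this normalization, a mean that includes 2 siRNA1 arrays not well above background. That limit did not hold in every normalization, since the measured difference of 0.49 (SE 0.15) ranged with the background treatment from 0.18 with normexp, which models the background out of each spot, and quantile normalization to 1.67 with scaling to the 75th percentile, whereas the bright probe ranged only from 0.88 to 1.17 over all settings.

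**Figure D1:**
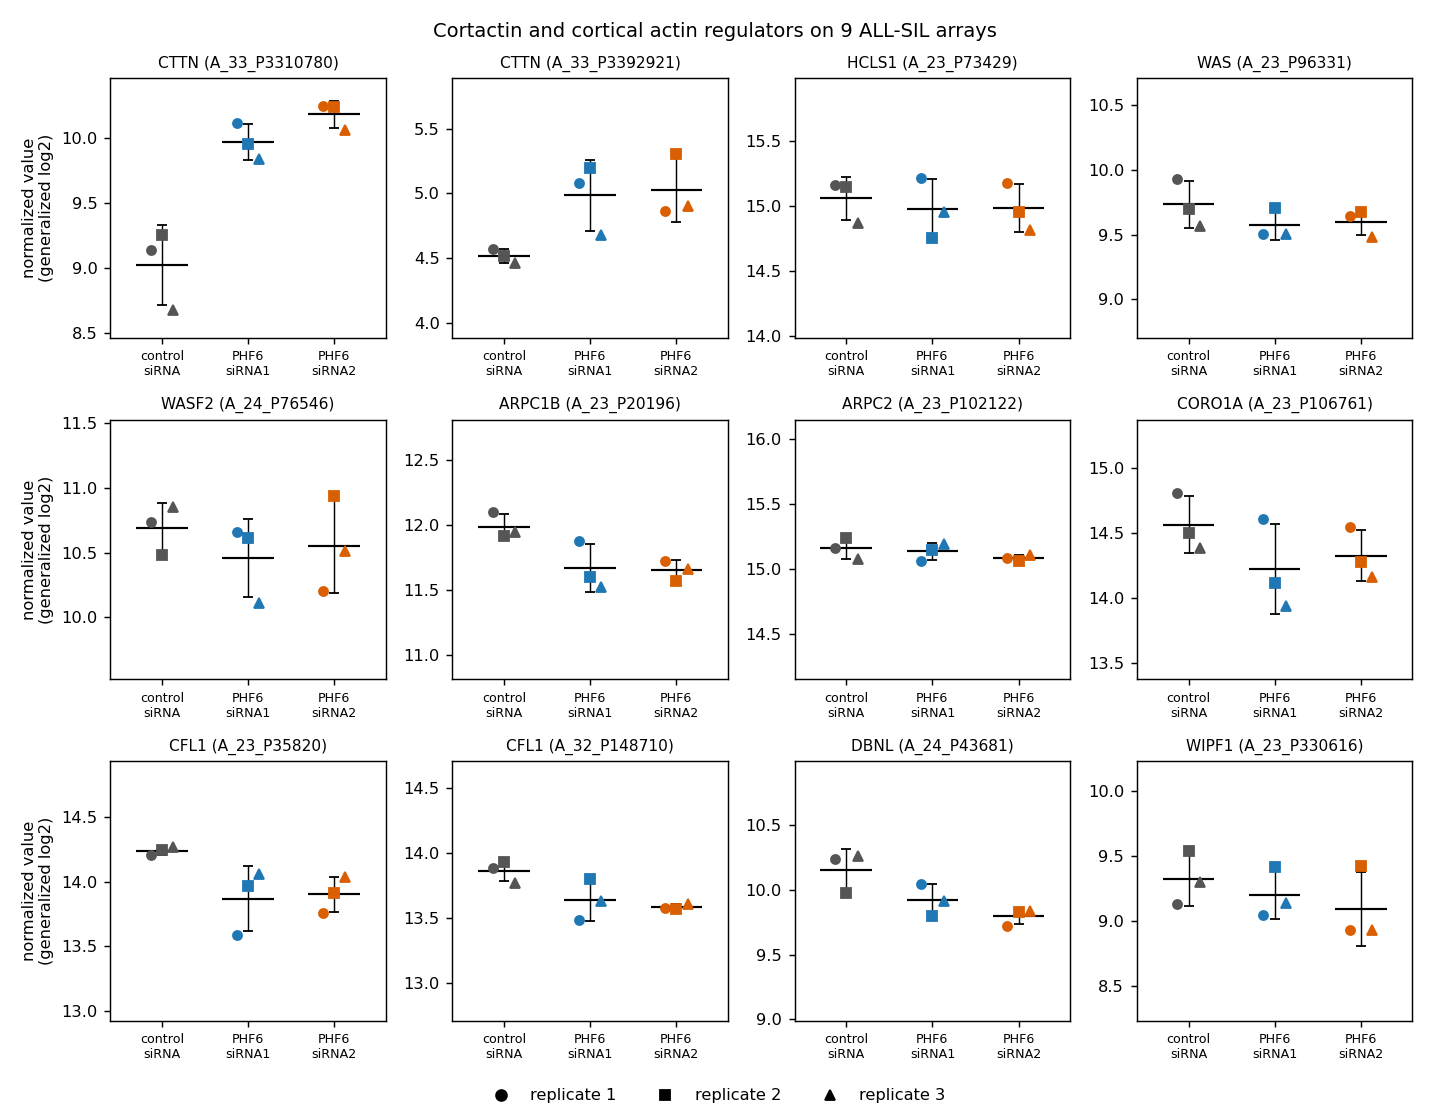
Normalized generalized log2 value of the 12 member probes in the 9 ALL-SIL samples, by siRNA group on the horizontal axis; symbols mark the replicate number, and bars the group mean and SD (n = 3). Every vertical axis spans the same log2 range but starts at a different level, and the siRNA samples lie above the controls for both CTTN probes and below them for ARPC1B and for CFL1 on A_23_P35820.

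*HCLS1*, the paralog that serves as the cortactin of lymphocytes, did not separate by siRNA. Its log2 value was 15.16, 15.14 and 14.87 in the control samples, 15.22, 14.75 and 14.95 with siRNA1, and 15.18, 14.96 and 14.82 with siRNA2. The groups overlapped, 3 of the 6 siRNA samples lay above their own control and 3 below it, and the mean difference of -0.08 was smaller than its SE of 0.14. The sign of this small difference turned in some settings, with a highest value of 0.03. *DBNL*, whose product links F-actin to endocytosis and T cell receptor signalling, gave 10.24, 9.97 and 10.26 in the control samples, 10.05, 9.80 and 9.92 with siRNA1, and 9.72, 9.82 and 9.84 with siRNA2. All 6 siRNA samples had less *DBNL* than the control of their number, by 0.30 (SE 0.12) on average, although the siRNA1 sample of replicate 1 lay above the lowest control.

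Of the Arp2/3 activators, neither separated from the controls. *WAS*, the gene of the Wiskott-Aldrich syndrome protein WASP, gave 9.93, 9.70 and 9.57 in the control samples, 9.50, 9.71 and 9.51 with siRNA1, and 9.64, 9.67 and 9.48 with siRNA2. Its highest value was a control, but the control of replicate 3 lay among the siRNA samples, and the mean difference was -0.15 (SE 0.12). *WASF2*, which encodes the Arp2/3 activator WAVE2, gave 10.74, 10.48 and 10.85 in the control samples, 10.66, 10.61 and 10.11 with siRNA1, and 10.21, 10.93 and 10.51 with siRNA2. The mean difference from the own control was -0.30 in replicate 1, 0.29 in replicate 2 and -0.54 in replicate 3, so the replicates pointed in opposite directions. *WIPF1*, the gene of the protein that binds WASP and shields it from degradation, gave 9.13, 9.54 and 9.30 in the control samples, 9.05, 9.41 and 9.14 with siRNA1, and 8.93, 9.42 and 8.93 with siRNA2. The replicate 2 sample was the highest of each group, and *WIPF1* was below its own control in 6 of 6 siRNA samples. The mean difference was -0.17 (SE 0.16, and 0.08 with the replicate block).

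The Arp2/3 subunits differed from each other. *ARPC1B*, the p41 subunit that blood cells prefer over *ARPC1A*, gave 12.10, 11.92 and 11.94 in the control samples, 11.88, 11.60 and 11.53 with siRNA1, and 11.72, 11.57 and 11.66 with siRNA2. Every siRNA sample lay below every control, and the mean difference was -0.33 (SE 0.12), the intensity being 0.797 of that in the controls. *ARPC2*, the p34 subunit at the core of the complex, was read by 4 spots and gave 15.16, 15.24 and 15.07 in the control samples, 15.06, 15.15 and 15.19 with siRNA1, and 15.09, 15.06 and 15.11 with siRNA2. These values overlapped and stayed within a narrow band, and the difference of -0.05 (SE 0.10) turned to 0.05 under normexp and quantile normalization.

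Both regulators of filament turnover were lower than their own controls in 6 of 6 siRNA samples. *CORO1A*, the gene of the leukocyte coronin that restrains Arp2/3 and is needed for T cell survival, gave 14.81, 14.50 and 14.39 in the control samples, 14.61, 14.11 and 13.94 with siRNA1, and 14.54, 14.28 and 14.16 with siRNA2. Replicate 1 was the highest sample in each group and the groups overlapped, with a mean difference of -0.29 (SE 0.17, and 0.09 with the replicate block). *CFL1*, the gene of the filament-severing protein cofilin, was read by 2 probes. On A_23_P35820 it gave 14.21, 14.24 and 14.27 in the control samples, 13.59, 13.96 and 14.06 with siRNA1, and 13.76, 13.91 and 14.03 with siRNA2. Here the controls lay close together above all siRNA samples, and the mean difference was -0.35 (SE 0.13). On A_32_P148710 *CFL1* gave 13.88, 13.93 and 13.77 in the control samples, 13.48, 13.80 and 13.63 with siRNA1, and 13.58, 13.56 and 13.61 with siRNA2. The siRNA1 sample of replicate 2 overlapped with the controls on this probe, and the difference was -0.25 (SE 0.11).

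**Figure D2:**
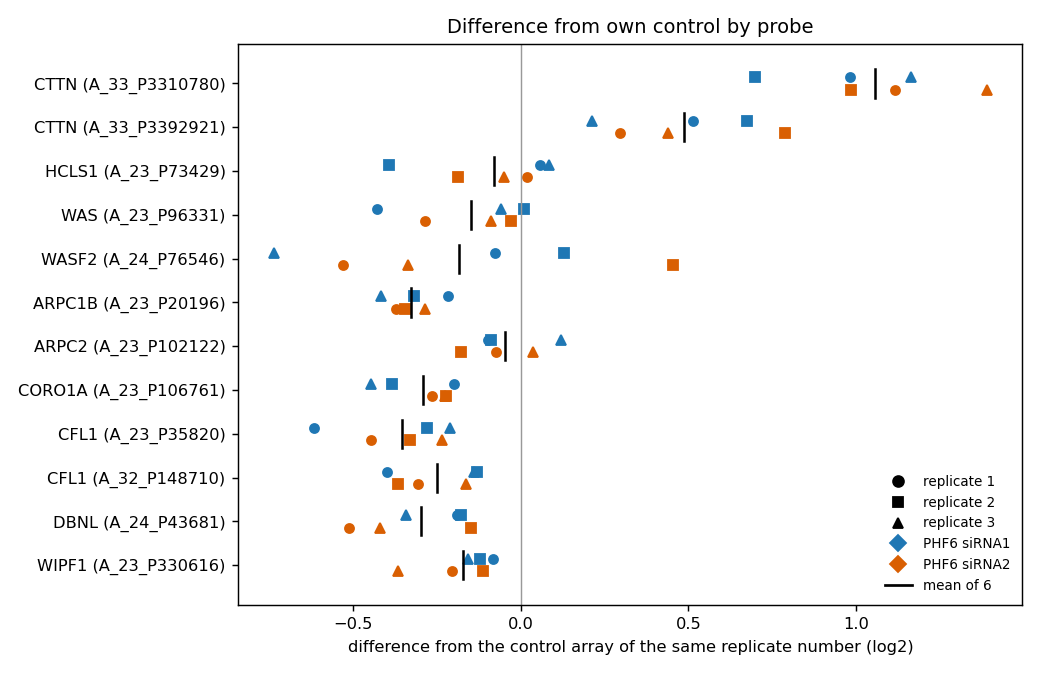
Difference in log2 value between each siRNA sample and the control sample of the same replicate number, one row per member probe, with circles, squares and triangles for replicates 1, 2 and 3, blue for siRNA1 and orange for siRNA2, and a vertical bar at the mean of the 6. The CTTN points lie at 0.70 to 1.39 on the bright probe, and all 6 points lie below 0 for ARPC1B, CORO1A, DBNL, WIPF1 and both CFL1 probes.

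In the count over all members, 2 probes were higher with the siRNAs, both of *CTTN*, and 10 were lower. The siRNA and control samples did not overlap for 4 of 12 probes, against 3.88% of all tested probes: 2 were higher, against 1.83%, and 2 lower, against 2.05%. A same direction in 6 of 6 siRNA samples was seen for 8 of 12 probes, against 21.5% of all tested probes, with 2 higher, against 10.7%, and 6 lower, against 10.8%. The 6 differences rest on 3 control samples that both siRNAs share, and since the members were chosen on this contrast nothing is read from these counts.

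How far the members varied between the numbered samples is another question than the contrast on which they were chosen. The choice may still bear on it, since the same arrays were used. All samples of a replicate number lay in the same row of the same slide, so replicate number and array position cannot be told apart. Of the 12 probes, 2 differed by replicate number (moderated F test of limma, adjusted over all tested probes), where 35.5% of all tested probes did. *CORO1A* averaged 14.65, 14.30 and 14.16 over the 3 groups in replicates 1, 2 and 3 (adjusted p = 0.0115), a range wider than its difference between siRNA and control. *WIPF1* averaged 9.04, 9.46 and 9.12 (adjusted p = 0.0180), with replicate 2 highest. Without the siRNA1 sample of replicate 1 neither was called (0 of 12 probes), and *WIPF1* was also lost without the siRNA1 or the siRNA2 sample of replicate 2. *CTTN* averaged 9.83, 9.82 and 9.52 on the bright probe and did not pass (adjusted p = 0.0822, from 0.0488 to 0.356 over the alternatives), but it passed on the deposited table, where the adjusted p was 0.0488. *CFL1* passed under normexp and quantile normalization on A_23_P35820 (adjusted p = 0.0221).

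The sum of squares of each probe over the 9 arrays was split into siRNA groups, replicate numbers and a remainder. The share between siRNA groups restates the contrast on which the members were chosen, and the other shares fall as it grows, so the split is a description from which nothing is read. For the bright *CTTN* probe 90.2% of the sum of squares lay between siRNA groups and 7.12% between replicate numbers. The siRNA share was also above the replicate share for *DBNL* (69.4% and 13.1%), *ARPC1B* (68.3% and 24.8%) and both *CFL1* probes (60.8% and 27.4% on A_23_P35820, 66.7% and 12.1% on A_32_P148710). It was the other way round for *WIPF1*, with 19.7% between siRNA groups and 75.2% between replicate numbers, for *CORO1A* with 31.1% and 64.5%, for *HCLS1* with 5.23% and 63.7%, and for *WAS* with 27.9% and 37.3%. For *WASF2* and *ARPC2* most of the variation was shared with neither, since 77.7% and 64.4% remained.

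**Figure D3:**
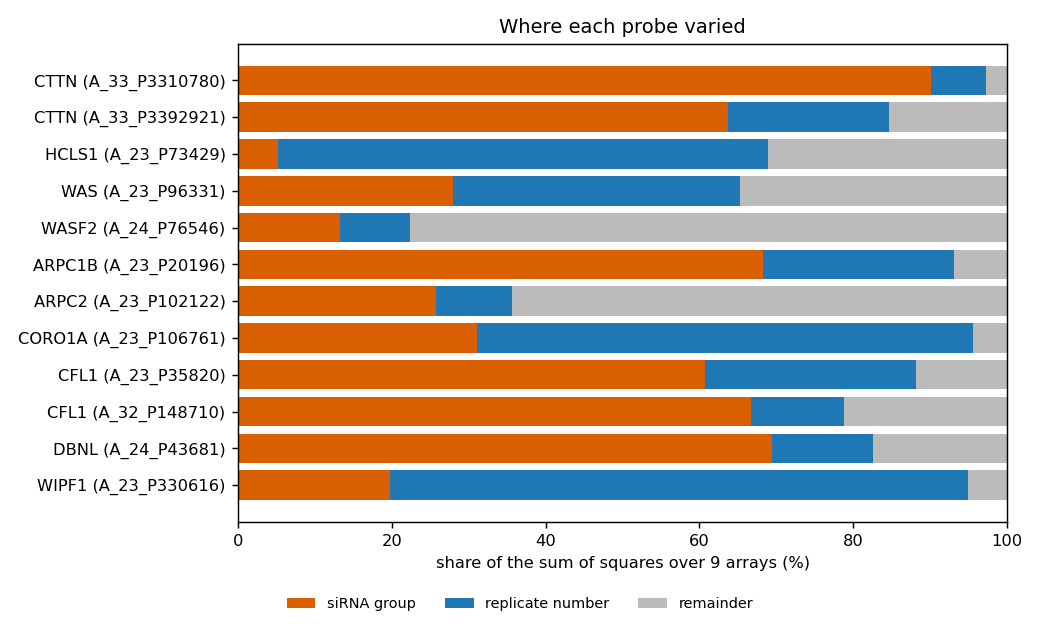
Share of the sum of squares over the 9 arrays, in percent, that lies between siRNA groups (orange), between replicate numbers (blue) and in the remainder (grey), one bar per member probe. The orange part is widest for CTTN (90.2% on the bright probe), and the blue part is widest for WIPF1 (75.2%).

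The direct comparison of siRNA2 with siRNA1 was also not the contrast on which the members were chosen. It uses the same arrays, and earlier results of these data were known, so the choice may still bear on it. None of the 12 probes passed (limma, 0 with an adjusted p and 0 with an unadjusted p under 0.05), and of all 33586 tested probes 0 passed after adjustment and 844 had an unadjusted p under 0.05 (2.51%). *CTTN* was 0.21 higher with siRNA2 on the bright probe, with a 95% interval from -0.16 to 0.59 (adjusted p = 1.00). With the replicate block the interval was -0.04 to 0.47 (adjusted p = 0.570), while 13 of all tested probes passed (0.0387%) and none of them was a member. Without the block the intervals of the other members were -0.36 to 0.38 for *HCLS1*, -0.42 to 0.18 for *DBNL*, -0.51 to 0.29 for *WIPF1*, -0.32 to 0.29 for *ARPC1B* and -0.33 to 0.54 for *CORO1A*. They were -0.29 to 0.34 for *WAS*, -0.38 to 0.56 for *WASF2* and -0.31 to 0.22 for *ARPC2*. For *CFL1* they were -0.30 to 0.37 on A_23_P35820 and -0.34 to 0.23 on A_32_P148710. Differences of this size between the siRNAs were therefore not detectable with 3 samples a group, and a p that misses the threshold does not show that the siRNAs act alike.

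**Figure D4:**
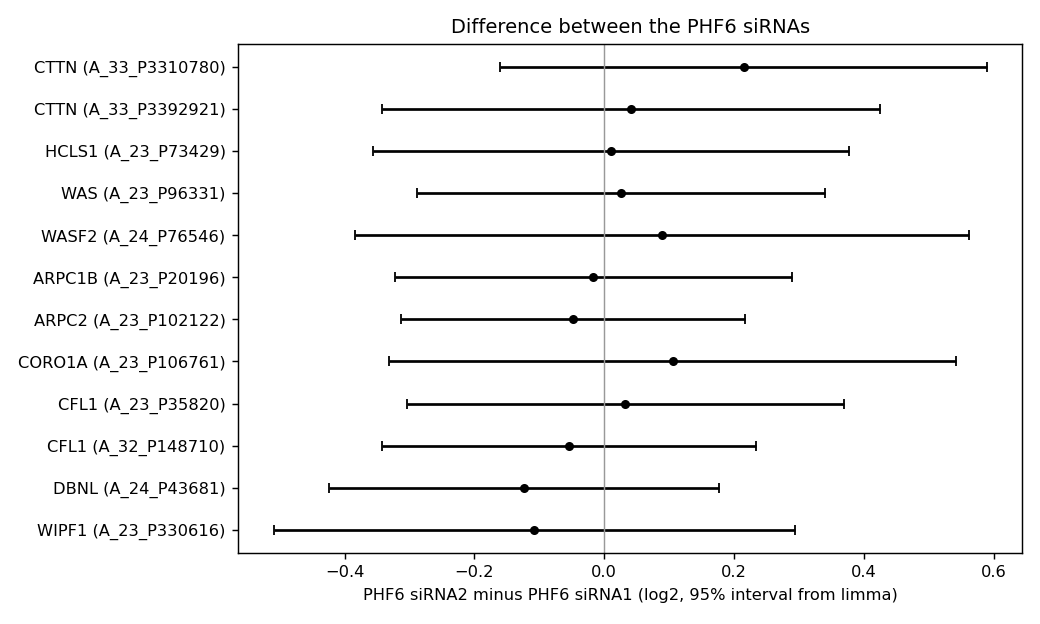
Mean difference in log2 value between PHF6 siRNA2 and PHF6 siRNA1 for each member probe (points) with the 95% interval of the limma fit (bars, n = 3 per group). Every interval crosses 0, and the CTTN point on the bright probe lies at 0.21.

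Among 13229 other genes with a probe well above background on all 9 arrays, the patterns most like that of the bright *CTTN* probe after the mean of each replicate number had been removed were those of *CD48* (Pearson r = 0.996), *CASTOR3P* (0.994), *PTPRU* (0.993), *CEACAM1* (0.989) and *PGM2L1* (0.987). *CD48* and *CEACAM1* encode surface receptors of the immunoglobulin superfamily and *PTPRU* a receptor tyrosine phosphatase. They were higher with the siRNAs by 0.75, 0.30, 0.59, 0.59 and 0.51 on the log2 scale in the same order. Among the members r with *CTTN* was 0.84 for its own dim probe, -0.93 for *ARPC1B*, -0.89 for *DBNL*, -0.87 for *WIPF1* and -0.24 for *HCLS1*. These values describe 9 arrays that share 3 controls and are set largely by the difference between siRNA and control samples.

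*CTTN* is a gene of many epithelial and stromal cells, and therefore the markers of such cells were read beside it. Of 9 epithelial or fibroblast markers, 4 were well above background on all 9 arrays, and *EPCAM*, *CDH1*, *COL1A2* and *COL3A1* were well above background on none. The log2 of their summed scanner intensity ranged from 10.84 to 11.21 in the control samples, from 10.89 to 11.40 with siRNA1 and from 10.94 to 11.36 with siRNA2. These sums were not normalized between arrays, so they also carry the brightness of each array. One of them, the keratin *KRT18*, was 0.77 higher with the siRNAs (limma with the replicate block, which called 2.74% of all tested probes, adjusted p = 0.0139, and 0.646 without it), whereas *KRT8* differed by -0.05 (adjusted p = 0.791). Of 6 megakaryocyte markers 3 were well above background on all 9 arrays and the platelet chemokine *PPBP* on none. The log2 of their summed scanner intensity, also not normalized, was 9.02 to 9.31 in the control samples, 8.82 to 9.31 with siRNA1 and 8.89 to 9.20 with siRNA2.

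Reference promoter windows, from 250 bases before to 50 bases after a transcript start (RefSeq, GRCh38.p14), were read for 7 of the 10 genes, and for *CTTN*, *WASF2* and *ARPC1B* no window was used here. The 3 windows printed here belong to the blood cell members *HCLS1* and *WAS*, whose siRNA and control samples overlapped, and to *CFL1*, whose siRNA samples lay below the controls on A_23_P35820. Capitals mark GGAAGT, a longer form of the GGAA core bound by ETS factors, searched on both strands. The shorter GGAA was not searched for.
*HCLS1*, chr3:121660854-121661153, minus strand: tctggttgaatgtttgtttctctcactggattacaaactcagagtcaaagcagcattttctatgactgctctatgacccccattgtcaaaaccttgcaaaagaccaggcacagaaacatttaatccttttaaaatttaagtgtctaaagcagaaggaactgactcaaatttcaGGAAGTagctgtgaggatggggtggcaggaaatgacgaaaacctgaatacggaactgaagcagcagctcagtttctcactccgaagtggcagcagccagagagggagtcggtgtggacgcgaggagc
*WAS*, chrX:48683549-48683848, plus strand: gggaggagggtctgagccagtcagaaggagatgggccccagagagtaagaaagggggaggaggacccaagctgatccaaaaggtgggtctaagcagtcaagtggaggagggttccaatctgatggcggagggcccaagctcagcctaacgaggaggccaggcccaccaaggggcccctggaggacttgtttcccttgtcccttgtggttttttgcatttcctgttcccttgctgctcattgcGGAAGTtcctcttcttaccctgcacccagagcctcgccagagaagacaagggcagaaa
*CFL1*, chr11:65858131-65858430, minus strand: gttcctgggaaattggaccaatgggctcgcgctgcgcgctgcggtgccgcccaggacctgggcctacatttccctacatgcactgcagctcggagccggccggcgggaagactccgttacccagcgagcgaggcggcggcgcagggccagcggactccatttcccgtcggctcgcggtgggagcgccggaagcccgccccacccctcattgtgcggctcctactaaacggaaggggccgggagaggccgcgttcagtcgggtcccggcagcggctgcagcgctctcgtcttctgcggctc
The printed *HCLS1* and *WAS* windows each held 1 match to GGAAGT and the *CFL1* window held 0. The shorter GGAA also occurs unmarked, as in the *CFL1* window, so 0 matches does not mean that the core is absent. *WAS* has a second window, at chrX:48676386-48676685, which held 0 and is not printed. Over all 12 windows of the 7 members, 4 held GGAAGT, in *HCLS1*, *WAS*, *ARPC2* and *WIPF1*, against 22.8% of all 35116 windows, and the CArG box of serum response factor was in 0 of the 12, against 1.29% of all windows. A match describes letters in a window and not a bound site.

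The wider actin machinery was taken from 8 lists with 145 further genes, of which 128 were tested, each by its brightest probe. Most were slightly lower with the siRNAs: 94 of 128 were lower and 34 higher (73.4% lower, against 58.9% of all 14677 genes), and their median log2 difference was -0.10, where that of all genes was -0.04. In the limma fit 0 of 128 had an adjusted p under 0.05, against 0.00681% of all genes, and 7 had an unadjusted p under 0.05 (6 lower, 1 higher), against 6.38%. With the replicate block 3 fell, against 1.21% of all genes, and 0 rose, so that the share called was 2.34%, against 2.36% of all genes in either direction.

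The 3 genes were *PFN1*, *VCL* and *ABI3*. Their SEs below are of the fit with the block, and without it they were 0.12, 0.13 and 0.19 in the same order. *PFN1*, which encodes the monomer-binding protein profilin, gave 12.17, 12.13 and 12.20 in the control samples, 11.56, 11.79 and 11.88 with siRNA1, and 11.53, 11.52 and 11.84 with siRNA2. All siRNA samples lay below all controls, and *PFN1* fell by 0.48 (SE 0.09, adjusted p = 0.0310 in limma with the block, 0.591 without it). *VCL*, which encodes vinculin, the linker between actin and adhesion sites, gave 8.59, 8.64 and 8.78 in the control samples, 8.28, 7.97 and 8.41 with siRNA1, and 8.33, 8.12 and 8.29 with siRNA2. These groups did not overlap either, and *VCL* fell by 0.44 (SE 0.09, adjusted p = 0.0416 with the block, 0.644 without it). *ABI3*, which encodes a WAVE complex subunit, gave 11.20, 10.73 and 10.65 in the control samples, 10.84, 10.16 and 10.37 with siRNA1, and 10.85, 10.32 and 10.37 with siRNA2. Replicate 1 was the highest of each group, so that the groups overlapped, and within the numbers *ABI3* fell by 0.38 (SE 0.09, adjusted p = 0.0498 with the block, 0.725 without it). All 3 calls were lost when any of the replicate numbers was left out of the blocked fit, which then called 0 of the list, and with the block on values scaled to the 75th percentile.

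**Figure D5:**
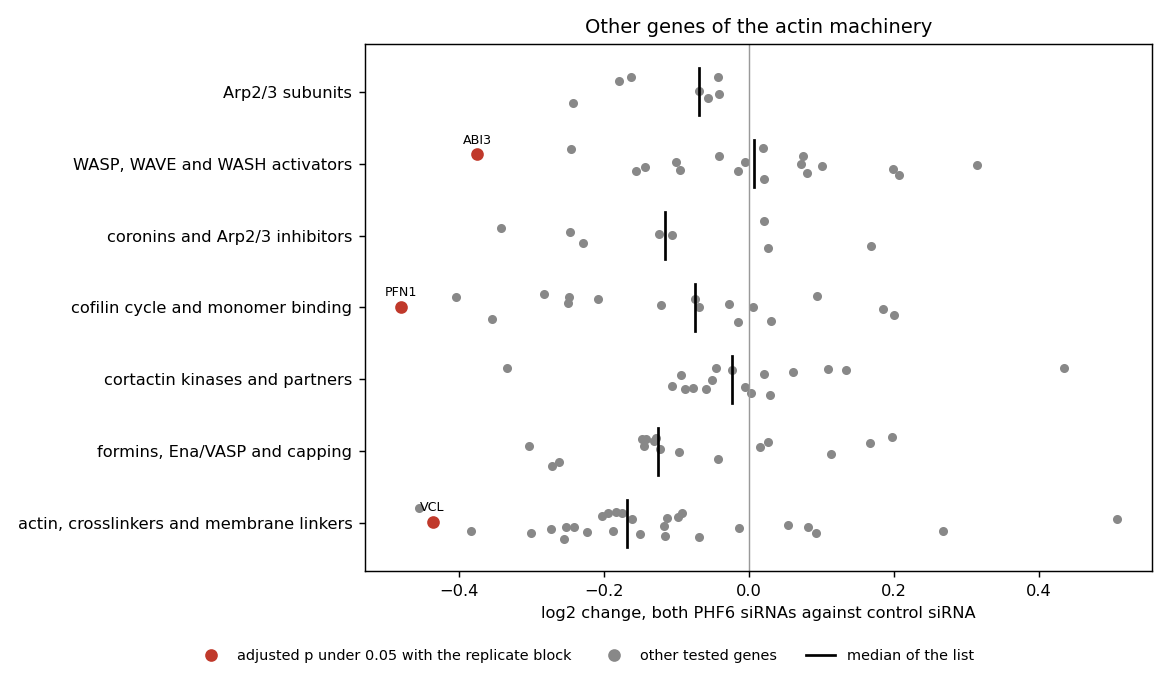
Mean log2 difference between both PHF6 siRNAs and control siRNA for 111 tested genes of 7 actin lists; each point is a gene, red points passed limma with the replicate block, and black bars mark the median of each list. The red points PFN1, VCL and ABI3 all lie below 0, and the 7 Arp2/3 subunits all lie below 0 with a median of -0.07.

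By role, the remaining Arp2/3 subunits were lower in 7 of 7 with a median of -0.07, from -0.24 for *ACTR3B* to -0.04 for *ARPC5*. Under normexp and quantile normalization this count was 5 of 7. Actin, its crosslinkers and membrane linkers were lower in 23 of 28 with a median of -0.17, with *TAGLN2* (transgelin-2) lowest at -0.46 and the spectrin *SPTBN1* highest at 0.51. Formins, Ena/VASP and capping proteins were lower in 11 of 16 (median -0.13), between -0.30 for *CAPG* and 0.20 for *DIAPH3*. Apart from *PFN1*, *VCL* and *ABI3*, no gene of these lists passed the test with or without the block.

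In the other lists given here the counts ranged from mostly lower to evenly split. The cofilin cycle and monomer-binding genes were lower in 12 of 17 (median -0.07), and *TWF1* was highest at 0.20. The coronins and Arp2/3 inhibitors were lower in 5 of 8 (median -0.12), between -0.34 for *CORO1B* and 0.17 for *CORO2B*. Activators of the WASP, WAVE and WASH families were split into 9 lower and 9 higher (median 0.01), with *CYFIP1*, a WAVE complex subunit, highest at 0.31. Kinases and partners of cortactin were lower in 10 of 17 (median -0.02), with *PTK2B* lowest at -0.33 and *ABL2*, a kinase that phosphorylates cortactin, highest at 0.43 (adjusted p = 0.0711 in limma with the block). Under normexp and quantile normalization the kinase list had 7 lower and 10 higher, and with the block *ABL2* passed there.

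In 31 of the 128 genes all 6 siRNA samples were below their own control (24.2%, against 14.1% of all genes), and in 8 genes all 6 were above it, against 7.33%. In 8 genes (6.25%, against 2.75%) all siRNA samples lay below all controls, and in 0 genes above them, against 1.06%. The direction moved with signal level over the whole array: the median log2 difference was 0.06 in the dimmest of 5 equal bins of genes, where 37.0% were lower, and -0.08 in the brightest bin, where 74.5% were lower. All 6 siRNA samples were below their own control for 20.7% of all genes in the brightest bin and 18.5% in the next. Of the 128 actin genes, 49 lay in the brightest bin, with a median of -0.12, and 41 in the next, with a median of -0.10. The part of signal level in the differences of the actin genes was not tested.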

How the data were processed

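Total RNA of the 9 samples was labelled with Cy3 and hybridised to custom Agilent arrays with 61537 spots. The deposited array files hold the spot intensity that the authors read with Agilent Feature Extraction (10.5.1.1 per the file headers, 9.1 per the labels), not normalized between arrays, with flags of 0 or 1 for well above background, outlier and saturation. A deposited table of log2 values, which the authors normalized with VSN, was used as an alternative.

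From the median intensity, without background subtraction and without outlier spots (74 to 153 per array), the VSN model (least trimmed squares at a quantile of 0.9, 7 iterations) was fitted by code written here, and repeated spots were averaged. It was tested on simulated data, and its correlation with the deposited table was 0.994 to 0.999 per array. Probes that exceeded background on at least 3 arrays entered limma 3.58.1 (R 4.3.3), with 9 arrays sharing the spread and Benjamini-Hochberg adjustment over 33586 probes at 0.05. Between 29662 and 33736 probes were well above background per array and 0 spots were saturated. The number of arrays limits the precision.

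Accessions were named through RefSeq (25729 of 57176 probes matched 1 symbol). Probes were designed on another genome build, so no probe coordinates are given. A gene was represented by its brightest probe in the wider lists, of which 1 is counted in the totals but not reported here by itself.

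The main fit had the siRNA group alone. Deviations of samples with the same number from their group means correlated at 0.31 to 0.75 (9 pairs). On this ground the replicate number from the labels paired the samples, and the fit with it as a block was set beside the main one. Deviations of different number and group correlated at -0.57 to 0.13 (18 pairs). Since deviations within a group cancel out by construction, this second range partly follows from the first. Other alternatives were the normalization (VSN on processed signal, the 75th percentile, normexp with an offset of 50 and quantile, the deposited table), the filter, the slide, the prior variance and each array left out.

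Named genes were all members, *PHF6*, the wider-list genes called in either fit with the highest and the lowest of each list, the 5 genes most like *CTTN* and the 5 genes on each side of it. The members, lists and tests were chosen with earlier results of these data known.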

Additional observations from a re-analysis of the deposited data

How the results depend on the processing

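The count of probes called for both siRNAs against control depended on the block: 3 without it, 919 with the replicate block and 24 with a slide block. The count was 5 with the 75th percentile, 5 with normexp and quantile normalization and 2 to 3 with each array left out. With the block it was 272 on the 75th percentile, 1297 on normexp and quantile and 868 on the deposited table, and 45, 5 and 672 without replicate 1, 2 and 3, settings chosen after seeing the data. For siRNA2 against siRNA1 the count of 0 became 13 with the replicate block, 6 with the slide block, 4 with probes well above background on all 9 arrays, and 0 to 11 with each array left out (11 without siRNA1 replicate 3, 3 without siRNA2 replicate 3), and no member probe was called in any of these. For the replicate number 11912 probes became 6916 without a filter and 6130 to 12140 with each array left out, and the 2 member probes became 1 without a filter (*CORO1A*), 3 under normexp and quantile (*CFL1* added), 3 on the deposited table (*CTTN* added) and 0 to 2 with each array left out. The wider actin lists gave 0 calls, 3 with the replicate block, 4 with the block on normexp and quantile (*PFN1*, *VCL*, *ABI3* and *ABL2*) and 3 with the block on the deposited table, of which the last 2 settings were chosen after seeing the data. Other than the calls given here, in the report and for the neighbours of *CTTN* with both values, the block changed no call among the tested comparisons reported, which leave out the members' differences from control. Of 299 alternative values of the members' log2 differences, 291 lay within 1 SD of the main value and 0 reversed a difference without overlap. The other 8 belonged to the dim *CTTN* probe and *ARPC2*. The causes were not tested. Many of the 299 values were fixed in advance. The blocks, the filters and the prior variance left the log2 differences of the members as in the main fit. The blocked fits on another normalization repeated the values of that normalization. The count of 291 is therefore no measure of how stable the differences are. The median of the actin genes was -0.04 under normexp and quantile normalization and -0.16 with VSN on the processed signal. Signal over background limits the dim *CTTN* probe, and 3 samples a group limit every interval.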

Other observations

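The genes around *CTTN* on chromosome 11 did not share its difference as a group. Of the 5 protein-coding genes on each side, 7 were tested. *FADD*, the death receptor adaptor, differed by -0.18 on the log2 scale and *PPFIA1*, the nearest tested gene on one side, by -0.01. On the other side *DHCR7*, the last enzyme of cholesterol synthesis, fell by 0.42 (limma with the replicate block, adjusted p = 0.0428, and 0.646 without it) and the hair keratin-associated gene *KRTAP5-7* rose by 0.45 (adjusted p = 0.0411, and 0.616 without it), with 2.74% of all tested probes called in that fit. *FGF3*, *FGF4* and *NADSYN1* differed by -0.09, -0.10 and -0.08. *ANO1* and *SHANK2* were well above background on 0 arrays and *KRTAP5-8* on 1.

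The genes whose pattern over the 9 arrays ran most opposite to *CTTN* were *BTN3A2* (Pearson r = -0.996), *VEZT* (-0.995), *IGLL1* (-0.993), *THOP1* (-0.988) and *REX1BD* (-0.986), chosen after their values were seen. *IGLL1*, the surrogate light chain gene of early B cells, had the widest difference of these, at -1.19 on the log2 scale, and *VEZT*, which encodes an adherens junction protein, the narrowest, at -0.19. These correlations rest on the same 3 controls as those given above.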
